A study of Homo sapiens with 101 samples.

Results

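Transcript levels in HT1080 cells given mitomycin C were set directly against those in HT1080 cells given neocarzinostatin, with no control sample in the contrast. The members are the 5 samples labelled MMC at 0.1 µM and the 6 samples labelled NCS at 10 ng/ml, taken by their titles, 11 samples beside 90 others in the series. HT1080 is an established human fibrosarcoma line with intact p53, so the results are those of 1 transformed line. All cells of both groups stood in medium with serum and received 0.1% vehicle from stocks in DMSO. Each compound was used at 1 dose that raised total p53 by 1.5-fold according to the series text, so the doses are matched by that rise and not by concentration. The labels give no exposure time and do not say that replicates were separate cultures, and p-values here measure only the spread between these samples. The control labelled DMSO_pooled, with 6 samples, is taken to lie in the same normalization set. That tie was read from the arrays' similar quantiles and is not stated in the labels. Values of this control are given beside the contrast. What was pooled in it is not stated.

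Mitomycin C is a quinone antibiotic that, once reduced in the cell, alkylates guanine and can join both DNA strands by a crosslink, which stops replication forks until Fanconi proteins and homologous recombination have dealt with it. Neocarzinostatin is an enediyne carried by a protein, and it cuts the DNA backbone directly, leaving single-strand and double-strand breaks as ionizing radiation does. Double-strand breaks activate the kinase ATM, and stalled forks activate ATR. Both routes stabilize p53, which switches on CDKN1A, the inhibitor of cyclin-dependent kinases. Loss of kinase activity keeps the pocket proteins of the DREAM complex on the promoters of replication, repair and mitotic genes, where they repress transcription through E2F and CHR elements. Histone genes of the replicative clusters are read mainly in S phase, through promoter elements such as the octamer bound by OCT1, and most of their transcripts carry no poly(A) tail.

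The recombination genes BRIP1 and RMI2 and the spindle gene CKAP2L were among those higher with MMC, and 6 genes of histones H2A and H2B were among those higher with NCS. With single libraries left out, BRIP1 met the rule given below in 1 of 11 fits, and RMI2 and CKAP2L in 2. The 6 histone genes met it in 2 to 11. With samples paired by replicate number, 15 of 33 replication genes, 8 of 39 mitotic genes and 12 of 28 recombination genes were higher with MMC. Of all genes tested 1.24% were, and without the pairing the counts in these 3 lists were 0, 1 and 2. The samples are bulk RNA, so fewer cells in a cycle phase and less transcript per cell cannot be told apart. A gene was called at an adjusted p under 0.05 in limma together with a fold of at least 1.5. A positive difference means higher in MMC. Of 10482 genes tested, 27 were called (0.258%), 17 higher in MMC (0.162%) and 10 higher in NCS (0.0954%). The median difference over all genes tested was -0.01 on the log2 scale. Of these differences 4885 were above 0 (46.6%) and 5597 below it, and signs counted in the lists are to be read against this. At an unadjusted p under 0.05, 7% of all genes tested were higher in MMC and 5.4% higher in NCS, or 14% and 14% with the block described next, and counts of list members at that p are given to be read against these shares. Samples of the same replicate number deviated together in both groups, although MMC replicates 4 and 5 followed NCS replicate 6 more closely. The labels state no pairing. With the replicate number as a block, over 5 pairs and without NCS replicate 6, 170 genes were called (1.62%). They were 130 higher in MMC (1.24% of all genes tested) and 40 higher in NCS (0.382%). The block kept 16 of the 17 and 10 of the 10 genes. The other was CEP152, whose difference of 0.60 ± 0.08 (SE) became 0.58 ± 0.09, just under the fold.

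The counts without the block changed with every library left out. Leaving out MMC replicates 1, 2, 3, 4 and 5 in turn left 5, 1, 4, 5 and 3 genes higher in MMC and 13, 5, 8, 6 and 5 higher in NCS. Leaving out NCS replicate 1 gave 121 and 25, and leaving out NCS replicates 2, 3, 4, 5 and 6 gave 4, 7, 2, 2 and 2 higher in MMC and 4, 7, 6, 4 and 7 higher in NCS. Libraries numbered 1 and 2 stood apart from the others in both groups on the first principal component, which held 54.5% of the variance. MMC replicates 1 and 2 lay at -32.9 and -20 there, NCS replicates 1 and 2 at -27.3 and -10.1, and the other libraries between 4.7 and 21.5. Without these 4 libraries 104 genes were higher in MMC and 24 in NCS, or 79 (0.754%) and 37 (0.353%), 116 in all (1.11%), with the block. With the block, leaving out pairs 1, 2, 3, 4 and 5 in turn gave 160, 70, 74, 139 and 94 genes higher in MMC and 47, 31, 41, 36 and 30 higher in NCS. Against DMSO_pooled, 20 genes were called higher in MMC (0.191%) and 0 lower by limma, where 220 were lower at an unadjusted p under 0.05, and 166 genes were called higher (1.58%) and 108 lower (1.03%) in NCS. The block raised these counts to 50 and 11 in MMC and to 211 and 201 in NCS.

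Of the markers of the line, 11 of 12 mesenchymal genes were at a mean log2 value of 4 or more in both groups, such as vimentin VIM at 13.08 in MMC and 13.10 in NCS. Of 12 epithelial genes only the keratins KRT8 and KRT18 reached 4, of 8 blood genes only CD68, and of 8 endothelial genes only TIE1. EPCAM, CDH1, PTPRC and CDH5 were all under 3 in both groups. The summed markers had overlapping ranges, with epithelial means per sample from 3.96 to 4.07 in MMC and from 3.97 to 4.08 in NCS. The 3′ minus 5′ signal of the ACTB control probe sets, a measure of RNA integrity, was 1.01 ± 0.08 (SD, n = 5) in MMC and 1.03 ± 0.17 (SD, n = 6) in NCS (exact two-sided permutation p = 0.79, adjusted p = 0.97 over 2 measures). For GAPDH it was -0.07 ± 0.08 and -0.07 ± 0.05 (exact permutation p = 0.97).

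Promoters are shown of the 2 histone genes with the largest differences, and of BRIP1 and CKAP2L. BRIP1 had the largest difference called higher in MMC, and CKAP2L was the called member of the G2/M and mitosis list. These promoters are examples that hold the elements counted below. Others called, such as CPAP and BCL2, hold none of them. Each is the stretch of 250 bases before the RefSeq start site in GRCh38.p14, read 5′ to 3′ on the minus strand. For H2BC4, at chr6:26123927-26124176, and H2BC21, at chr1:149886683-149886932, capitals mark the octamer ATTTGCAT and the CCAAT box (CCAAT, or ATTGG on the other strand). For BRIP1, at chr17:61863529-61863778, and CKAP2L, at chr2:112764610-112764859, capitals mark the CCAAT box and the CHR element TTTGAA, which reads TTCAAA on the other strand.
H2BC4: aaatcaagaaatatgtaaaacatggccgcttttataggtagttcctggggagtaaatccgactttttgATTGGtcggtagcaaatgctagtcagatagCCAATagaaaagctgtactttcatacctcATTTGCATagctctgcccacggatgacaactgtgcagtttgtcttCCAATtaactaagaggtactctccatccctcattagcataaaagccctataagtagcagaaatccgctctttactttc
H2BC21: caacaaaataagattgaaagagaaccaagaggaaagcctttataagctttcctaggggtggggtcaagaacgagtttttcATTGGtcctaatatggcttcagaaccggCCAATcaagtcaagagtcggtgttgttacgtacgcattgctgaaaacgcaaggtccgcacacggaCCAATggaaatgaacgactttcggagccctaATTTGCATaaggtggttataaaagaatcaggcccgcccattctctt
BRIP1: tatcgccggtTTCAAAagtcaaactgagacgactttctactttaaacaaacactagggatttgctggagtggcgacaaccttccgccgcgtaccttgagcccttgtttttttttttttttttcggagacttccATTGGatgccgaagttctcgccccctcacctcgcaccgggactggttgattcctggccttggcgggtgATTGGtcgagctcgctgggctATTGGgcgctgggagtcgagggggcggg
CKAP2L: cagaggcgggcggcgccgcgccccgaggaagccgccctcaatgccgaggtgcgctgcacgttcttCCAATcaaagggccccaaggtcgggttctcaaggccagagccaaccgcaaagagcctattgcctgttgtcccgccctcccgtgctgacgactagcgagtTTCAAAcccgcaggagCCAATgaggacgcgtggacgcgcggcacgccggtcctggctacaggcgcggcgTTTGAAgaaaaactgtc

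The elements were picked after the calls were seen, and a match describes letters and not a bound site. They were searched on both strands in windows of 300 bases, 250 before and 50 after the start site, which 8747 of the 10482 genes tested had. The octamer was in 5 of the 6 histone genes called without the block (83.3%) and in 6 of the 9 called with it (66.7%). It was in 4 of the 11 histone genes with a window that were not called with the block (36.4%), and in 1.73% of all genes tested. In the windows shown it began 123 bases before the start site of H2BC4 and 46 bases before that of H2BC21. CCAAT was in 9 of the 9 histone genes called with the block, in 9 of the 11 not called (81.8%) and in 44.1% of all genes tested. Of the 130 genes called higher in MMC with the block 110 had a window. CHR was in 37 of these (33.6%, against 14.2% of all genes tested) and CCAAT in 66 (60.0%). Any of the E2F sites TTTGGCGC, TTTCCCGC, TTTGCCGC and TTTCGCGC was in 20 of them (18.2%, against 6.91%) but in 0 of the 14 with a window among the genes called higher in MMC without the block, and the E2F core GGCGGGAA, whose other strand overlaps TTTCCCGC in part so that a site can count under both, was in 16 (14.5%, against 6.52%). CKAP2L had a CHR 17 bases before its start site and another 86 before it, and BRIP1 had an E2F core 2 bases after its start site, outside the stretch printed. H2BC4 and H2AC6 lie head to head on chromosome 6, and their windows share 255 bases. The counts above enter each of them as its own gene, so this shared stretch is counted for both.

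**Figure D1:**
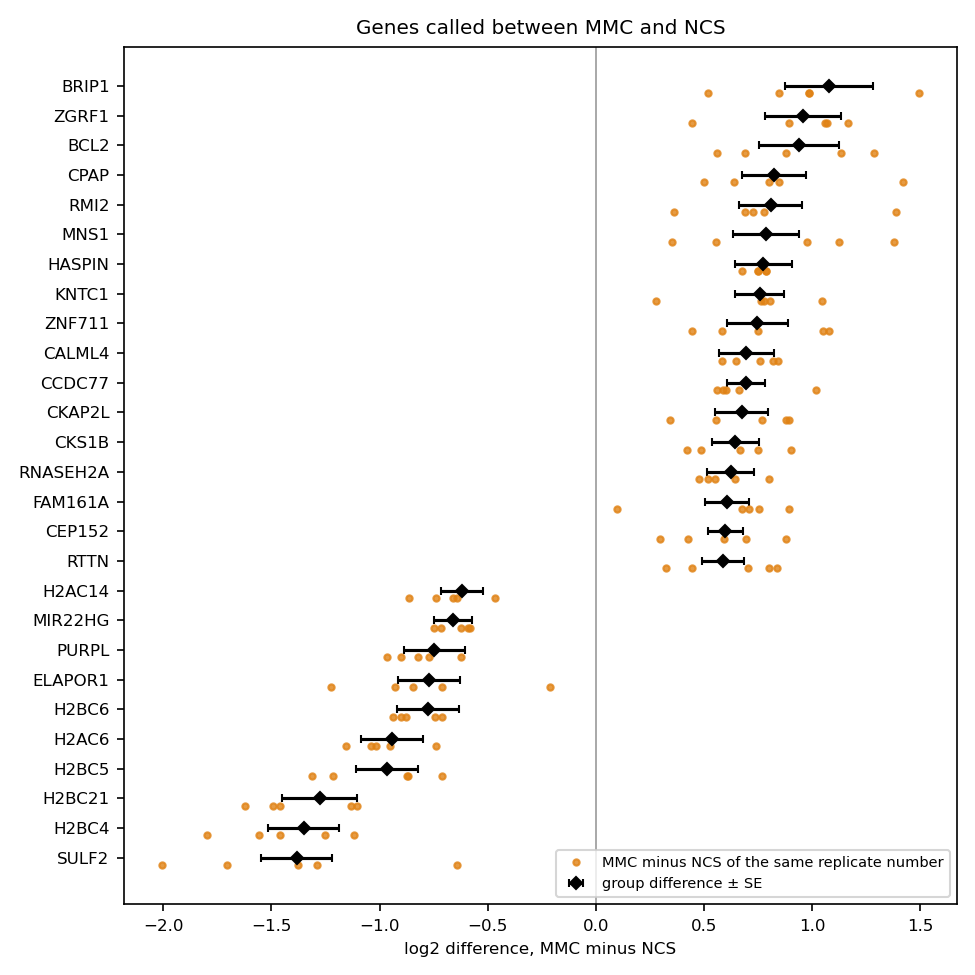
Log2 differences, MMC minus NCS, of the 27 called genes (diamonds, ± SE of the group difference) with the difference of each of the 5 pairs of the same replicate number (circles). All circles of the 17 genes higher in MMC lie above 0 and all circles of the 10 genes higher in NCS lie below it.

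The histone genes gave the largest differences toward NCS among genes well above background in both groups. H2BC4, which encodes a copy of histone H2B, had log2 values of 6.13, 5.92, 6.41, 5.53 and 5.78 in MMC and of 7.25, 7.47, 7.66, 7.33, 7.24 and 6.88 in NCS. Every NCS sample was above every MMC sample, as were those of 0.916% of all genes tested. The difference was -1.35 ± 0.16, a 2.55-fold higher level in NCS (95% interval 1.99 to 3.26, adjusted p = 0.0098). The 6 DMSO_pooled samples ran from 5.22 to 6.22, within or below the range of MMC.

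H2BC21, an H2B gene outside the main cluster, on chromosome 1, had 5.86, 6.21, 5.90, 5.61 and 5.39 in MMC. In NCS it had 6.99, 7.32, 7.53, 7.10, 6.85 and 6.65, with no overlap. Its difference was -1.28 ± 0.17 (2.42-fold, 95% interval 1.87 to 3.14, adjusted p = 0.0098), and DMSO_pooled ran from 5.07 to 6.06.

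Further members of the cluster on chromosome 6 were called with smaller differences. H2BC5 had -0.96 ± 0.14, with 7.94 to 8.50 in MMC and 8.92 to 9.71 in NCS. The H2A gene H2AC6, the neighbour of H2BC4, had -0.94 ± 0.14, with 8.09 to 8.82 in MMC and 9.16 to 9.77 in NCS. H2BC6 had -0.78 ± 0.14, with 7.43 to 8.05 and 8.23 to 8.80. H2AC14 had -0.62 ± 0.10 on a lower level, with 4.23 to 4.61 in MMC and 4.84 to 5.25 in NCS. In each of these the groups did not overlap.

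In the histone list 5 of 15 members tested were called higher in NCS without the block and 6 with it, and none was called higher in MMC. The count was 6 without MMC replicate 1 or NCS replicate 1, 4 without MMC replicate 3, NCS replicate 3 or NCS replicate 6, 3 without MMC replicate 4 or NCS replicate 4, and 2 without MMC replicate 2, MMC replicate 5, NCS replicate 2 or NCS replicate 5. With the block it was 6 under every pair left out. The list's median difference was -0.46, and -0.13 where genes under the filter entered. The member called with the block but not in the unblocked fit of all 11 samples was H1-2, a linker histone. It had -0.69 ± 0.11 and an adjusted p of 0.080 in limma, or -0.70 ± 0.08 and 0.0079 with the block. Differences above 0 were measured too, in 5 of the 15, none of them called. H4C3, an H4 gene, had 0.51, and H2AZ1 and H2AZ2, which encode variants made outside S phase too, had 0.30 and 0.32. Without NCS replicate 1, 1 member was called higher in MMC. Over all 22 histone genes tested, in the list or not, 9 were called higher in NCS with the block and 15 were higher in NCS in every pair, as were 13.4% of all genes tested. The probe sets of H2BC5, H2BC6 and H2AC14 are of the kind that can bind near-identical copies, so which copy gave the signal is uncertain. The labelling primes on poly(A), so these values show only histone transcripts that such priming can reach.

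**Figure D2:**
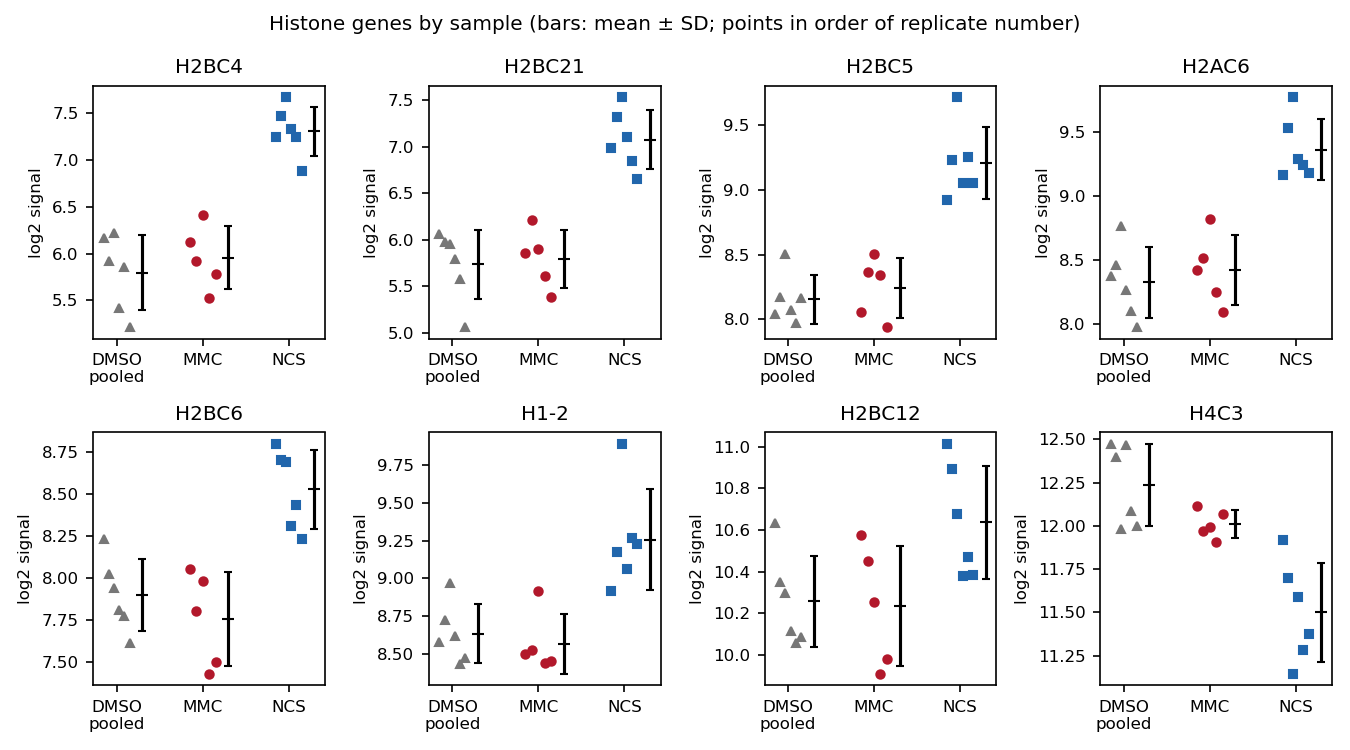
Log2 signal of 8 histone genes in each sample of DMSO_pooled (6), MMC (5) and NCS (6), with points in order of replicate number and bars for mean ± SD. In H2BC4, H2BC21, H2BC5, H2AC6 and H2BC6 all NCS samples lie above all MMC samples, and in H2BC12 and H4C3 the groups overlap. In H1-2 the groups touch, with the highest MMC sample and the lowest NCS sample both at 8.914.

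Outside the histones, 4 genes were called higher in NCS. SULF2, a secreted enzyme that trims sulfate from heparan sulfate, had 3.78, 3.54, 3.62, 3.05 and 3.33 in MMC, all under 4 and so not well above background. In NCS it had 4.42, 4.83, 5.32, 5.06, 4.71 and 4.74. Measured against 4 it was at least 0.85 higher in NCS on the log2 scale (measured difference -1.38 ± 0.16, adjusted p = 0.0098). PURPL, a long noncoding RNA that p53 is known to induce, had 6.26 to 6.87 in MMC and 6.97 to 7.69 in NCS, a difference of -0.75 ± 0.14. MIR22HG, the host transcript of miR-22, had 7.92 to 8.36 and 8.67 to 8.94 (-0.66 ± 0.09), and ELAPOR1, a transmembrane protein of the endosome and lysosome system, 6.19 to 6.80 and 7.01 to 7.48 (-0.77 ± 0.14). PURPL was 0.69 above DMSO_pooled in MMC and 1.44 above it in NCS, while MIR22HG differed from it by -0.01 in MMC and 0.65 in NCS.

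Of the recombination and crosslink repair genes, BRIP1 and RMI2 were called higher in MMC. BRIP1, the helicase FANCJ that works with BRCA1, had 7.53, 7.56, 7.51, 7.12 and 7.03 in MMC. In NCS it had 7.01, 6.57, 6.01, 6.13, 6.18 and 5.72, all below every MMC sample, as NCS samples were for 1.3% of all genes tested. The difference was 1.08 ± 0.20 (2.11-fold, 95% interval 1.55 to 2.87, adjusted p = 0.042). Its difference from DMSO_pooled was 0.43 in MMC (adjusted p = 0.54) and -0.65 in NCS (adjusted p = 0.064), and neither passed. RMI2, a subunit of the complex with BLM that dissolves recombination intermediates, had 7.70 to 7.99 in MMC and 6.37 to 7.34 in NCS, a difference of 0.81 ± 0.15 (adjusted p = 0.041).

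In the list of homologous recombination and Fanconi genes 25 of 28 differences were above 0, with a median of 0.55. With the block 12 were called higher in MMC. Without the block the count was 11 without NCS replicate 1, 1 without NCS replicate 3, and 0 without each other single library. With the block it ran from 9 to 14 with 1 pair left out. EXO1, the nuclease that resects DNA ends, had 6.52 to 8.05 in MMC and 5.28 to 7.60 in NCS, which overlap across replicate numbers. Its difference was 1.24 ± 0.45 (adjusted p = 0.27), or 1.08 ± 0.19 (adjusted p = 0.016) with the block. BRCA1 had 0.90 ± 0.23, or 0.81 ± 0.09 (adjusted p = 0.0067) with the block, and its partner BARD1 0.96 ± 0.21, or 0.96 ± 0.12 (adjusted p = 0.0079). BLM, the helicase of the RMI2 complex, had 1.00 ± 0.24, or 0.92 ± 0.13 (adjusted p = 0.010). FANCI, which with FANCD2 forms the clamp that Fanconi ubiquitination locks on DNA, had 0.90 ± 0.27, or 0.82 ± 0.18 (adjusted p = 0.032). Of these 5 genes, all called with the block, none was called in the unblocked fit of all 11 samples. Each was higher in MMC in 5 of 5 pairs. With single libraries left out and no block, BRCA1, BARD1, BLM and FANCI were each called in 1 of 11 fits and EXO1 in 0.

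The replication genes showed the same direction with a wider spread between libraries. In the list of replication machinery 33 of 33 differences were above 0, with a median of 0.64, and 27 were higher in MMC in every pair, against 13.4% of all genes tested. None of the 33 was called without the block, where 21 were higher in MMC at an unadjusted p under 0.05. With the block 15 were called, and 8 in the fit that shared its variance over the 7 groups of the normalization set. Without NCS replicate 1 the count was 12 with no block, and without the 4 libraries numbered 1 and 2 it was 17, or 12 with the block. With the block, leaving out pairs 2, 3 and 5 gave 9, 8 and 7. CDC45, which joins the replicative helicase at each fork, had 7.72, 7.57, 7.09, 7.07 and 6.81 in MMC and 7.33, 6.80, 5.50, 5.88, 5.84 and 5.26 in NCS. Each pair was higher in MMC although the groups overlapped, and the difference was 1.15 ± 0.34 (adjusted p = 0.18), or 0.98 ± 0.15 (adjusted p = 0.012) with the block. MCM10, which helps start the helicase, had 1.15 ± 0.41, or 1.01 ± 0.20 (adjusted p = 0.023). CDC6, a licensing factor, had 1.09 ± 0.48, or 0.98 ± 0.23 (adjusted p = 0.035), and POLE2, a subunit of DNA polymerase epsilon, 0.89 ± 0.44, or 0.78 ± 0.19 (adjusted p = 0.040). MCM5 and MCM6, subunits of the helicase ring, were not called in either fit, at 0.60 ± 0.21 and 0.59 ± 0.32.

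The mean of the replication list per sample was 8.37, 8.20, 7.74, 7.63 and 7.64 in MMC. In NCS it was 8.12, 7.76, 6.75, 7.17, 6.87 and 6.82. Replicates 1 and 2 were the highest of both groups, and NCS replicate 1 lay above MMC replicates 3, 4 and 5. The pair differences ran from 0.25 in pair 1 to 0.99 in pair 3. DMSO_pooled samples ran from 7.74 to 8.52. The median difference of the members from DMSO_pooled was -0.09 in MMC and -0.80 in NCS, beside 0.02 and 0.02 over all genes tested. Both of those comparisons use the same control samples.

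**Figure D3:**
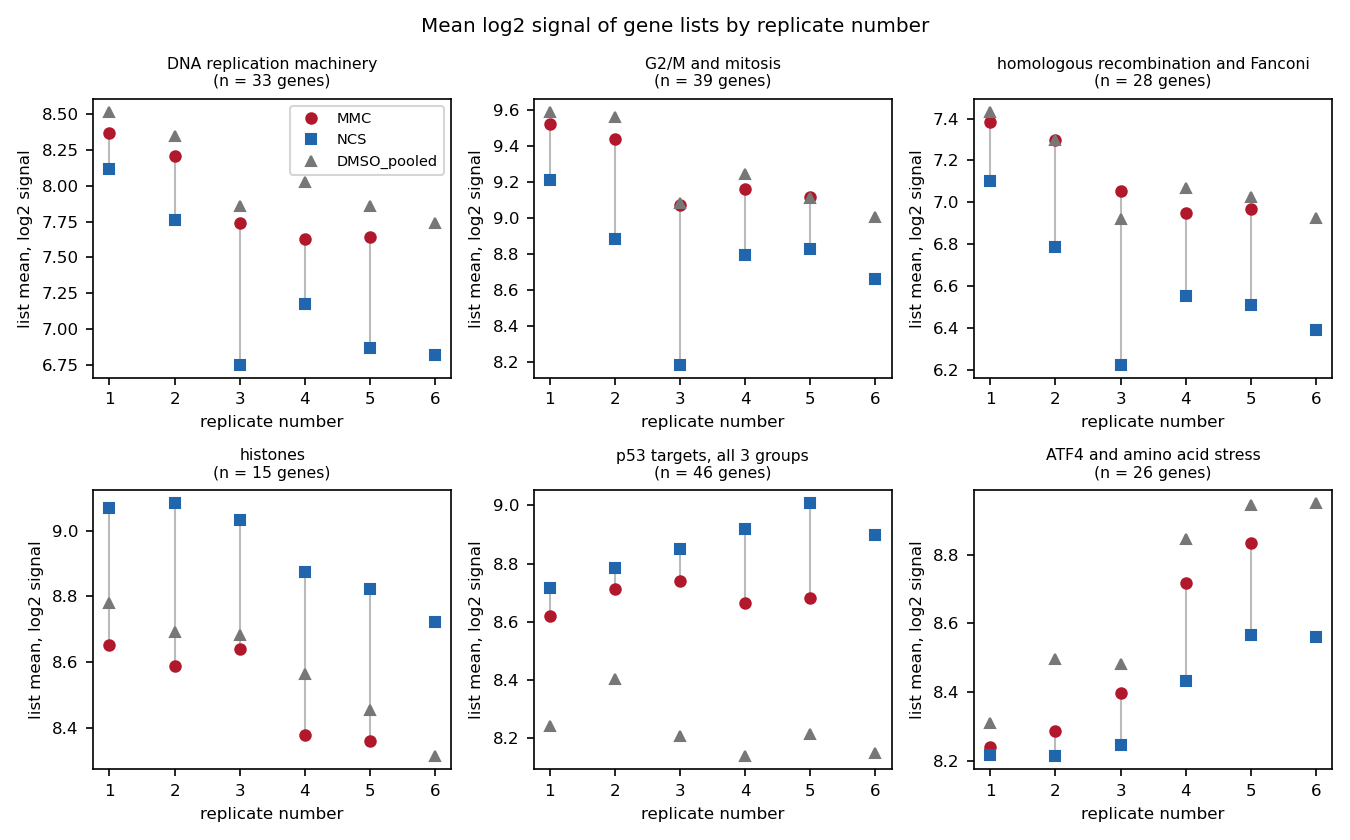
Mean log2 signal over 6 gene lists in each sample, by replicate number, for MMC (red circles), NCS (blue squares) and DMSO_pooled (grey triangles), with lines joining MMC and NCS samples of the same number. In the replication, G2/M and recombination lists MMC lies above NCS in 5 of 5 pairs, in the histone and p53 lists below it in 5 of 5, and in the ATF4 list above it by 0.02 to 0.29.

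Of the G2/M and mitosis genes, 39 of 39 differences were above 0, with a median of 0.52, and 1 was called. That gene was CKAP2L, a spindle protein, with 8.77, 9.01, 8.68, 9.05 and 8.98 in MMC and 8.43, 8.12, 7.79, 8.28, 8.43 and 8.29 in NCS. The groups did not overlap, and the difference was 0.67 ± 0.12 (1.60-fold, 95% interval 1.33 to 1.91, adjusted p = 0.041). With the block 8 were called, and 2, 3 and 11 without pairs 2, 3 and 1. With no block 12 were called without NCS replicate 1, 1 without NCS replicate 3, and 0 without each other single library. KIF15, a kinesin of the spindle, had 1.10 ± 0.29, or 1.08 ± 0.20 (adjusted p = 0.019) with the block. AURKB, the kinase that corrects chromosome attachment, had 0.85 ± 0.27, or 0.81 ± 0.12 (adjusted p = 0.011). KIF11, the motor that separates the poles, had 0.81 ± 0.22, or 0.75 ± 0.17 (adjusted p = 0.031), and CENPA, the histone of the centromere, 0.71 ± 0.26, or 0.65 ± 0.11 (adjusted p = 0.015). MKI67, the proliferation antigen, had 0.61 ± 0.23 and was under the fold with the block, at 0.57 ± 0.10. CCNB1, the mitotic cyclin, had 0.29 ± 0.16. The list's median difference from DMSO_pooled was 0.02 in MMC and -0.50 in NCS.

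Of the 17 genes called higher in MMC, 14 lie outside the lists. CPAP, which sets centriole length, had 7.98, 7.86, 7.96, 8.09 and 8.07 in MMC and 7.48, 7.01, 6.54, 7.45, 7.27 and 7.26 in NCS, a difference of 0.82 ± 0.15 (adjusted p = 0.041). CEP152, a scaffold for centriole duplication, had 7.34 to 7.63 in MMC and 6.75 to 7.05 in NCS. RTTN, also needed for building centrioles, had 6.81 to 7.32 and 6.23 to 6.60 (0.59 ± 0.10). KNTC1, a subunit of the kinetochore complex that recruits dynein, had 7.30 to 7.56 and 6.40 to 7.10 (0.76 ± 0.11). HASPIN, the kinase that marks histone H3 at centromeres, had 4.97 to 5.59 and 4.21 to 4.91 (0.77 ± 0.13). CKS1B, the small subunit of cyclin-dependent kinases, had 10.27 to 10.53 and 9.37 to 10.04 (0.64 ± 0.11). Of these genes all but CEP152 were called with the block too.

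ZGRF1, a helicase linked to crosslink resistance, had 5.55, 5.49, 5.41, 4.52 and 5.40 in MMC and 4.08 to 4.60 in NCS, so that MMC replicate 4 overlapped with NCS (0.96 ± 0.17). BCL2, the inhibitor of apoptosis, had 4.77 to 5.42 in MMC and 3.74 to 4.86 in NCS (0.94 ± 0.18), with 1 of its 4 probe sets above the filter. RNASEH2A, the catalytic subunit of the enzyme that removes ribonucleotides from DNA, had 8.36 to 8.73 and 7.66 to 8.18 (0.62 ± 0.11). CCDC77, a coiled-coil protein, had 6.92 to 7.21 and 6.16 to 6.62 (0.70 ± 0.09, adjusted p = 0.0098) and was the 1 gene of the 17 called under every single library left out. MNS1, a protein of sperm flagella and cilia, had 0.79 ± 0.15, CALML4, a calmodulin-like protein, 0.70 ± 0.13, and FAM161A, a ciliary protein, 0.61 ± 0.10. ZNF711, a zinc finger protein of the X chromosome, was under 4 on average in NCS (3.98) and was at least 0.72 higher in MMC. Of the 10 genes higher in NCS, 4 were called under every library left out, namely SULF2, H2BC4, H2BC21 and MIR22HG.

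The p53 targets were the readout closest to what the doses were matched on, and none of 46 was called without the block. At an unadjusted p under 0.05, 12 were higher in NCS without the block and 20 with it. Their median difference was -0.17, with 40 of 46 below 0, and 18 were higher in NCS in every pair against 13.4% of all genes tested. CDKN1A had 8.85, 8.92, 9.05, 8.87 and 8.98 in MMC and 8.95, 9.11, 9.25, 9.43, 9.59 and 9.41 in NCS. NCS replicate 1 overlapped with MMC, and the difference was -0.36 ± 0.11 (95% interval -0.59 to -0.12, adjusted p = 0.18), or -0.33 ± 0.09 (adjusted p = 0.052) with the block. CDKN1A was 0.70 above DMSO_pooled in MMC and 1.05 above it in NCS. MDM2, the ligase that degrades p53, had -0.25 ± 0.11 (95% interval -0.49 to -0.01), and TP53I3, an oxidoreductase, -0.44 ± 0.11 with no overlap between groups. TP53INP1, a cofactor in p53 phosphorylation, had -0.47 ± 0.13, SPATA18, a mitochondrial quality factor, -0.51 ± 0.16, and SESN1, an inhibitor of mTORC1 signalling, -0.32 ± 0.08.

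ACER2, a ceramidase of the Golgi, was the 1 target called with the block, at -0.70 ± 0.13 (adjusted p = 0.021), against -0.67 ± 0.14 (adjusted p = 0.057) without it. Without pair 4 or pair 5 the block called 0 targets, and without pair 1 it called 2. With no block 1 was called without MMC replicate 2 and 1 without NCS replicate 1. At the other end lay DDB2, which recognizes damage in nucleotide excision repair, with -0.12 ± 0.13 (95% interval -0.41 to 0.17), and PPM1D, the phosphatase that ends the response, with -0.11 ± 0.10 (-0.32 to 0.10). POLH, the polymerase that copies past lesions, had 0.07 ± 0.07 (-0.08 to 0.22), and RRM2B, a subunit of ribonucleotide reductase, -0.09 ± 0.08 (-0.27 to 0.09). These intervals exclude a 1.5-fold difference. GDF15, FAS, BBC3 and XPC had -0.25 ± 0.17, -0.22 ± 0.11, -0.20 ± 0.14 and -0.32 ± 0.14. The median target was 0.42 above DMSO_pooled in MMC and 0.59 above it in NCS.

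**Figure D4:**
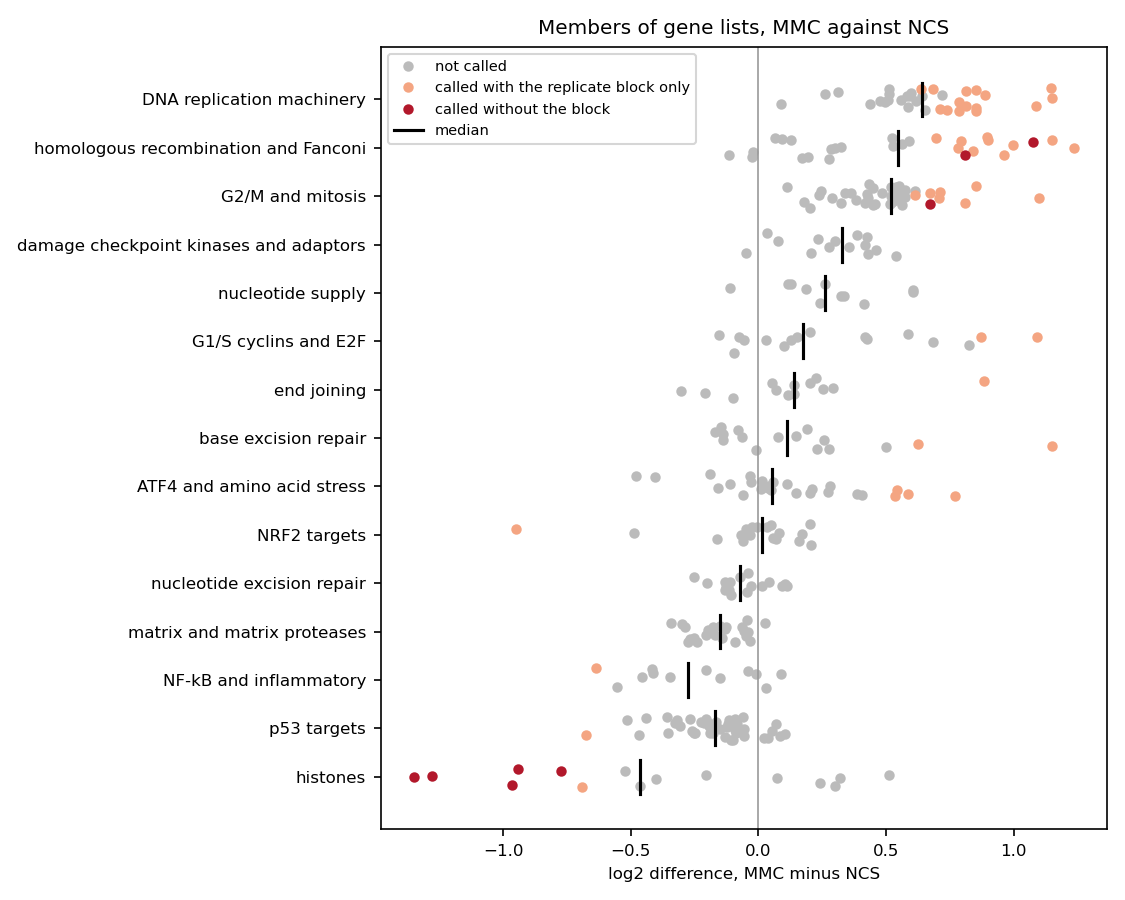
Log2 difference, MMC minus NCS, of each tested member of 15 gene lists (points, coloured by whether the gene was called without the block, only with the replicate block, or not called), with the list's median as a black bar. Members of the replication and G2/M lists all lie above 0, while the histone list reaches from -1.35 to 0.51.

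The remaining repair lists held few calls. In base excision repair 2 of 16 were called with the block and 0 without it (6 at an unadjusted p under 0.05), and the higher of them in MMC was NEIL3, a glycosylase that can open crosslinks, at 1.15, or 1.07 ± 0.20 (adjusted p = 0.020). The other was PARP2, a sensor of strand breaks. The uracil glycosylase UNG had 0.50 ± 0.22. In end joining 1 of 13 was called with the block, the polymerase POLQ at 0.81 ± 0.13, and in translesion synthesis 1 of 9, the ubiquitin ligase RAD18. Neither list had a call without the block (1 and 2 higher in MMC at an unadjusted p under 0.05). None of 17 nucleotide excision repair genes was called in either fit (0 and, with the block, 2 at an unadjusted p under 0.05), with a median of -0.07 and a range from -0.25 to 0.11. None of 14 checkpoint kinases and adaptors was called (6 higher in MMC at an unadjusted p under 0.05, 11 with the block), with 13 of 14 differences above 0 and a median of 0.33. Of the G1/S cyclins and E2F genes 0 of 16 were called without the block (4 at an unadjusted p under 0.05) and 2 with it, E2F8 at 1.00 ± 0.21 and RBL1, a pocket protein, at 0.75 ± 0.10. CCNE2, the cyclin of S phase entry, had 0.83 ± 0.57, and UHRF1, which carries DNA methylation through replication, 0.68 ± 0.37.

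Of the amino acid stress genes under ATF4, a few enzymes and carriers were higher in MMC in the paired comparison. Without the block none of 26 was called (4 higher in MMC and 1 in NCS at an unadjusted p under 0.05), and with it 4 were higher in MMC, with a list median of 0.05, or 0.10 with the block. ASNS, asparagine synthetase, had 8.95, 8.70, 8.86, 10.27 and 10.33 in MMC and 8.72, 8.23, 7.86, 8.89, 9.01 and 9.20 in NCS. Replicates 4 and 5 were the highest in MMC, each pair was higher in MMC, and the difference was 0.77 ± 0.35 (adjusted p = 0.39), or 0.88 ± 0.17 (adjusted p = 0.021) with the block. PSAT1 and PHGDH, enzymes of serine synthesis, had 0.59 ± 0.09 and 0.65 ± 0.13 with the block, and the cystine carrier SLC7A11 0.61 ± 0.14. With the block no member was called without pair 3 or pair 5, 1 without pair 4 and 3 without pair 2. The difference of ASNS from DMSO_pooled was -0.70 in MMC (adjusted p = 0.86) and -1.47 in NCS (adjusted p = 0.013).

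Inflammatory genes varied strongly with the replicate number. In the NF-kB list 10 of 12 differences were below 0, with a median of -0.28. At an unadjusted p under 0.05, 0 members passed without the block and 7, all higher in NCS, with it. With the block 1 was called, against 0 without it. That gene was PTGS2, the inducible cyclooxygenase, with 6.18, 7.32, 8.39, 7.87 and 7.84 in MMC and 6.63, 7.99, 9.34, 8.32, 8.33 and 8.31 in NCS. The level differed more between replicate numbers than between compounds, and the difference was -0.64 ± 0.45, or -0.60 ± 0.08 (adjusted p = 0.0094) with the block. IL6 had -0.55 ± 0.27, IL1A -0.42 ± 0.36 and IL1B -0.46 ± 0.61. The interferon-stimulated list had 0 of 15 called and a median of -0.06, and its member IFIT1 had 0.32 ± 0.23. At an unadjusted p under 0.05, 3 of that list were higher in NCS, or 2 higher in MMC and 5 in NCS with the block. In the matrix list 22 of 23 differences were below 0, between -0.34 and 0.03, with none called (2 at an unadjusted p under 0.05, 7 with the block). Cholesterol synthesis had 0 of 15 called and a median of 0.10, hypoxia and glycolysis 0 of 19 and -0.08, and heat shock 0 of 11 and 0.03. In limma at an unadjusted p under 0.05 each of these 3 lists had 0 members without the block and 4, 4 and 1 with it, where 27.9% of all genes tested were past that p.

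Calls were also counted by the genomic span of the gene, with the block unless stated. Genes spanning under 10 kb had 16 of 2146 higher in MMC (0.746%) and 18 higher in NCS (0.839%), and those of 10 to 30 kb had 41 of 2929 (1.4%) and 12 (0.41%). Those of 30 to 100 kb had 59 of 3397 (1.74%) and 3 (0.0883%), and those over 100 kb had 14 of 2008 (0.697%) and 7 (0.349%). Without the block the 4 span groups, from the shortest, had 4, 3, 7 and 3 genes higher in MMC and 5, 3, 1 and 1 higher in NCS. The median differences of the 4 span groups lay between -0.03 and 0.01. The difference in counts between span groups was not tested.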

How the data were processed

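Affymetrix HT HG-U133+ PM arrays were read as the deposited log2 values of the authors, for which the submitters' processing notes name GCRMA and Partek without versions. No further normalization was applied. Fits used limma (version 3.58.1; R 4.3.3; data.table version 1.17.8) with Benjamini-Hochberg adjustment. Each array held 54715 probe sets, 12835 of which the array's annotation gives no gene and 864 several genes, and these were left out. Each of 19747 genes was read from its brightest probe set over all arrays of the series, and tested at a mean of 4 or more over the 11 arrays. Group means under 4 are taken as not well above background. All medians of the arrays lay between 3.27 and 3.33, and the number of arrays limits the precision.

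Deviations of the samples from their group means correlated between same-numbered MMC and NCS samples at r = 0.88, 0.67, 0.61, 0.33 and 0.59 over the tested genes, so the numbers were read as pairs. MMC replicates 4 and 5 correlated better with NCS replicate 6 (0.63 and 0.69). The labels do not state the pairing.

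Members and gene lists were chosen with earlier results of these data known. Genes named are a panel of 32 genes (28 tested, 2 called), up to 12 called genes in each direction without overlap, and up to 4 members of each described list. Some genes that this rule names are not reported here. Other named genes were picked after their values were seen, namely those called but outside these parts, the members of the smaller lists and the markers. The alternatives were other filters, probe set rules, normalizations, variance models and fits, the replicate block, and each replicate left out. Those without the libraries numbered 1 and 2, the block without pairs and the random block were added after seeing the data. The fit was tested on simulated data. Promoters and gene names are from RefSeq (GRCh38.p14), and 3 symbols found no match. Tables and plots used pandas 2.3.3, numpy 2.4.6 and matplotlib 3.10.9.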

Additional observations from a re-analysis of the deposited data

Results flagged for a closer look

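The lowest or highest sample was tested for a gap to the others (Dixon's test) in 164 groups, those of named genes and of list means. Of these 3 were marked, where chance marks about 1 in 20 groups. H2AC14 was low in MMC replicate 2, at a log2 value of 4.226, with the nearest sample at 4.507. RMI2 was high in MMC replicate 4, at 7.985 against 7.77, and ZGRF1 was low in MMC replicate 4, at 4.519 against 5.401. H2AC14 and RMI2 kept groups that did not overlap, while the ZGRF1 value lies within the range of NCS.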

How the results depend on the processing

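The 27 called genes kept their direction wherever the 33 alternative settings gave them a value, with 631 values that stayed called and 247 that lost the call. The 33 leave out the fit of every probe set on its own, which kept 7 of the 17 and 7 of the 10 calls. They include the fit with no fold minimum, where all 27 stay called by construction. The block without pair 1 is also the block without the libraries numbered 1, so that fit counts under both. Another 13 had no value, 8 under the filter at a mean of 6 and 5 with the mean of all probe sets. The 47 other named genes gave 1337 values that stayed uncalled, 203 that gained a call and 2 with a turned sign, POLH at -0.036 with the mean of all probe sets and IL1B at 0.087 without MMC replicate 1, in a range down to -0.84 without NCS replicate 1. The genes higher in MMC numbered 7 with no filter on low values, 67 in 1 fit of the 7 groups of the set, 39 in 1 fit of all 17 groups and 40 with no fold minimum, where 19 were higher in NCS. Leaving out 1 replicate gave 1 to 121 genes higher in MMC and 4 to 25 higher in NCS. With the replicate block, in which the numbers pair the samples, 130 and 40 were called, and 160, 70, 74, 139 and 94 higher in MMC and 47, 31, 41, 36 and 30 higher in NCS with pairs 1 to 5 left out in turn. The replicate number as a random block over 11 arrays gave 140 and 32. Without the libraries numbered 1 there were 34 higher in MMC, or 160 and 47 with the block, which is the fit without pair 1 again. Without those numbered 1 and 2 there were 104 and 24, or 79 and 37 with the block. The histone median was -0.13 with no filter and -0.16 with every probe set on its own. Against DMSO_pooled the replicate block gave 50 genes higher and 11 lower in MMC, from 20 and 0, and 201 lower in NCS, from 108. The block changed no other call named in the text beyond those given with it. The causes were not tested.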

Other observations

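The replicate block called 30 genes higher in NCS beyond those of the unblocked fit. The following, outside the parts of the naming rule, were picked after their values were seen, and no shared function is claimed. CDH10, a cadherin, had means of 4.62 in MMC and 5.56 in NCS, with a difference of -1.07 ± 0.16 (adjusted p = 0.012) in the block. CSMD3, a large membrane protein, had -0.92 ± 0.14, HAS2, the hyaluronan synthase, -0.70 ± 0.10 (means of 6.22 and 6.86), and SLAMF7, a receptor known from lymphocytes, -0.65 ± 0.07. The keratin-associated KRTAP2-3 had -1.04 ± 0.13 (means of 7.14 and 8.12), and NEFL, a neurofilament, -0.79 ± 0.14. These 6 genes were called in 5 of 5 block fits with a pair left out. BMP2, a ligand of the TGF-beta family, had -0.88 ± 0.16 (means of 5.06 and 5.98) and was called in 3 of 5, as was FLRT3, an adhesion protein, with -0.66 ± 0.12. TREM2, a receptor known from myeloid cells, had -0.79 ± 0.19 (means of 4.33 and 5.27) and was called in 0 of 5, with adjusted p values of up to 0.10. AKR1B10, an aldo-keto reductase and the 1 of 18 NRF2 targets called, had -1.05 ± 0.21 and was called in 2 of 5, although NCS was above MMC in every sample. HAS2 was 0.20 above DMSO_pooled in MMC and 0.84 above it in NCS.

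Of the 114 genes called higher in MMC by the block but not by the unblocked fit, some outside the lists are given in the same way. The kinetochore genes SPC25 and SKA1 had 1.08 ± 0.15 and 0.99 ± 0.14. ESCO2, which acetylates cohesin in S phase, had 0.89 ± 0.13, FBXO5, the inhibitor of the anaphase-promoting complex, 0.89 ± 0.11, and PLK4, the kinase that starts centriole duplication, 0.92 ± 0.13. DCLRE1B, a nuclease of telomeres and crosslinks, had 0.86 ± 0.10, and DNA2, a nuclease of resection and of flap removal, 0.97 ± 0.16. These 7 were called in 5 of 5 block fits with a pair left out. The kinetochore genes DSN1, with 0.80 ± 0.15, and CENPI, with 0.85 ± 0.14, were called in 3 and 4 of 5.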
